A study of Arabidopsis thaliana with 12 samples.

Results

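IAA29 (AT4G32280) and GH3.3 (AT2G23170) are 2 auxin genes of Arabidopsis thaliana, out of 13350 gene names that the platform annotation ties to a probe set of their own, and each was measured by 1 probe set. Their transcript levels were read from 12 Affymetrix arrays, each hybridised with leaf RNA of 1 sample, and the label age was 4 weeks. There were 3 arrays for each of 4 genotypes, namely ssi2, the double mutants ssi2 act1 and ssi2 sid2, and wild type. The labels give Col-0 as the genetic background of all 4 genotypes and no treatment, and they name no allele numbers. Every mutant group carried the ssi2 mutation, so the act1 and sid2 mutations were seen only in its presence. Both genes were chosen with results of these arrays known, IAA29 for its low level in ssi2 compared with wild type and GH3.3 for its low level in ssi2 sid2 compared with ssi2. Those comparisons, and any that share an array with them, are given below as descriptions without a p-value.

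Auxin is perceived by an F-box receptor that marks Aux/IAA proteins for degradation, which frees the auxin response factors to act on their target genes. IAA29 is a member of the Aux/IAA repressor family, and its transcription is raised by auxin and, through the phytochrome-interacting factors (PIFs), by shade. GH3.3 is an acyl-amido synthetase that joins the auxin indole-3-acetic acid to amino acids, which takes free auxin out of use, and its own transcription is raised by auxin. Of the mutated genes, SSI2 encodes a plastid desaturase that forms oleic acid, ACT1 a plastid acyltransferase that consumes it, and SID2 the isochorismate synthase of salicylic acid synthesis. These 3 genes had no single-gene probe set in the annotation used, so the genotypes were not checked on them here.

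The values are signal intensities scaled by the authors to a common level, with array medians from 95.8 to 158. In 2 genotypes 1 array was unlike its companions, replicate 2 of wild type and replicate 3 of ssi2. These had the largest median absolute log2 differences from the other replicates of their group, 0.51 and 0.46, where the other arrays had 0.26 to 0.43. The 25S ribosomal RNA signal was 1817 on ssi2 replicate 3, the array with the highest GH3.3, and 174 to 600.1 on the other 11 arrays, and its part in the results was not tested. The leaf gene RCA, which encodes Rubisco activase and was the 1 measured name of 20 in the leaf list, had a signal of 2419 on wild type replicate 2 and between 8251 and 21357 on the other arrays. The shoot meristem gene CLV3 lay between 1.35 and 17.9 on all arrays. Differences of IAA29 and GH3.3 that use these 2 arrays were recomputed without them. The labels call the replicates biological and say no more of how they were grown, so a p-value speaks only for the spread among them, which may be partly technical.

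IAA29 was high in wild type, low in ssi2 and in ssi2 sid2, and intermediate in ssi2 act1. Its signal in wild type was 1647, 951 and 1726 in replicates 1 to 3. In ssi2 it was 44.7, 51.3 and 73.0. The 2 groups were far apart, and the lowest wild type value was that of the array that stood apart. In ssi2 act1 the signals were 129.7, 362 and 327, and in ssi2 sid2 they were 74.0, 57.3 and 23.2. The ssi2 and ssi2 sid2 arrays overlapped, while the ssi2 act1 arrays lay above both and below all wild type arrays. On the wild type arrays IAA29 stood at the 84.1 to 90.5 percentile of all probe sets, and on the ssi2 and ssi2 sid2 arrays between the 24.7 and the 42.7. Leaf RNA is a mixture, and fewer cells that hold a transcript cannot be told apart from less of it in each cell.

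GH3.3 had another order, with the highest level in ssi2, lower levels in wild type and ssi2 act1, and the lowest in ssi2 sid2. Its signal in ssi2 was 1480.5, 3538 and 5546 in replicates 1 to 3. In wild type it was 633, 133 and 476. All ssi2 arrays were above all wild type arrays, and the lowest wild type value again belonged to the array that stood apart. The signals were 372, 98.2 and 220.1 in ssi2 act1 and 22.2, 69.2 and 16.5 in ssi2 sid2. The ssi2 act1 values of replicates 1 and 3 lay within the range of wild type and that of replicate 2 below it, and all 3 ssi2 sid2 values were below those of every other array. The highest signal of GH3.3 was 336 times the lowest, against 74.3 times for IAA29. GH3.3 stood between the 89.2 and the 98.0 percentile of all probe sets in ssi2 and between the 20.4 and the 40.1 in ssi2 sid2.

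**Figure D1:**
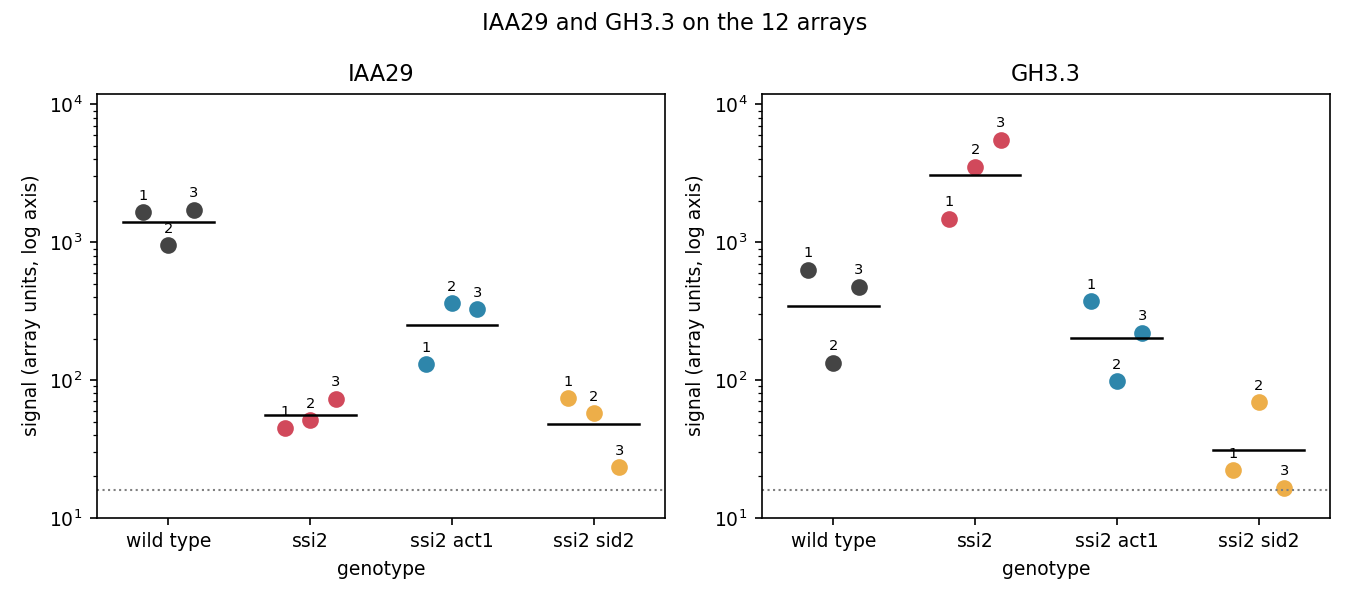
Signals of IAA29 and GH3.3 on each of the 12 arrays, on a log axis, by genotype. Numbers beside the points are replicate numbers, black bars are means of log2(signal + 16) turned back into signals, and the dotted line marks a signal of 16. IAA29 separates wild type from the 3 mutant genotypes, and GH3.3 separates ssi2 above and ssi2 sid2 below the other genotypes.

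GH3.3 also varied more between replicates than IAA29. Its standard deviation within genotypes, pooled over the 4 groups on the log2(signal + 16) scale, was 0.94, and 96.3% of all probe sets had a smaller one. That of IAA29 was 0.56, larger than in 73.5% of probe sets, and the median over all probe sets was 0.44. Mean log2 levels of IAA29 were 10.46 ± 0.47 in wild type, 6.16 ± 0.29 in ssi2, 8.06 ± 0.76 in ssi2 act1 and 5.99 ± 0.62 in ssi2 sid2 (SD, n = 3). Those of GH3.3 were 8.50 ± 1.13, 11.59 ± 0.96, 7.77 ± 0.89 and 5.56 ± 0.74 in the same order. Both probe sets had a mean above the 40th percentile and so remained when dim probe sets were left out. That mean runs over all 12 arrays and includes the genotypes where each gene was high. Passing the filter therefore says nothing of how well the low levels were measured.

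The ssi2 mutation set against wild type was the comparison in which IAA29 was chosen. The difference of IAA29 was -4.30 (SE 0.42, n = 3 arrays per genotype) on the log2 scale, the 13th lowest among the 13513 single-gene probe sets. Without the 2 arrays that stood apart it was -4.74. The difference of GH3.3 was 3.09 (SE 0.66), the 109th highest, and without those arrays it was 2.03. The groups did not overlap for either gene, as the choice of IAA29 requires, and IAA29 and GH3.3 lay on opposite sides of wild type. Limma called 10.1% of all probe sets in this comparison. A call is another measure than absence of overlap, which can arise by chance with 3 arrays per genotype. The share of all probe sets without overlap was not counted in any comparison.

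The act1 mutation in the ssi2 background went with opposite differences of the 2 genes. IAA29 was 1.90 higher in ssi2 act1 than in ssi2 (SE 0.42), and GH3.3 had a difference of -3.82 (SE 0.66). Without ssi2 replicate 3 the differences were 2.06 for IAA29 and -3.40 for GH3.3. For both genes the 3 arrays of one genotype did not overlap with those of the other. Limma called 8.37% of all probe sets in this comparison, which is not the share without overlap. Set against wild type, IAA29 in ssi2 act1 had a difference of -2.40 (SE 0.42), and the genotypes did not overlap. The share of all probe sets called there was 1.79%, again not the share without overlap. GH3.3 in ssi2 act1 against wild type was the comparison that shared no array with its choice. The difference was -0.73 (SE 0.66, 95% interval -2.16 to 0.71), it was not called (limma adjusted p = 0.765), and the genotypes overlapped. Without wild type replicate 2 it was -1.37 (limma adjusted p = 0.32). The interval still holds differences of more than 2 log2 units below wild type, so equal levels are not shown.

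The sid2 mutation in the ssi2 background was the comparison in which GH3.3 was chosen. GH3.3 had a difference of -6.03 (SE 0.66) from ssi2, the 2nd lowest among the single-gene probe sets, and of -2.94 (SE 0.66) from wild type. Without both arrays that stood apart these were -5.61 and -3.58. IAA29 had a difference of -0.16 (SE 0.42, 95% interval -1.08 to 0.75) from ssi2, with overlapping arrays, and of -4.47 (SE 0.42) from wild type, the 3rd lowest. Limma called 3.13% of all probe sets in ssi2 sid2 against ssi2 and 6.41% against wild type. With sid2 present the 2 genes therefore both lay below wild type, while in ssi2 they lay on opposite sides of it. The comparisons named so far share the ssi2 or the wild type arrays.

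The 2 double mutants were then set against each other, which for IAA29 shared no array with its choice. IAA29 was higher in ssi2 act1 than in ssi2 sid2 by 2.06 (SE 0.42, 95% interval 1.15 to 2.98, limma adjusted p = 0.0144), with each of the 3 ssi2 act1 arrays above all 3 ssi2 sid2 arrays. The call was lost without ssi2 act1 replicate 2, where the difference was 1.81 (limma adjusted p = 0.0631), without ssi2 act1 replicate 3 at 1.88 (0.0644) and without ssi2 sid2 replicate 3 at 1.71 (0.0799). Over all 20 alternatives the adjusted p ranged from 0.00809 to 0.0799. GH3.3 had a difference of 2.21 (SE 0.66) between the same genotypes, and its arrays did not overlap either. Limma called 6.4% of all probe sets between these genotypes, and the share without overlap was not counted.

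**Figure D2:**
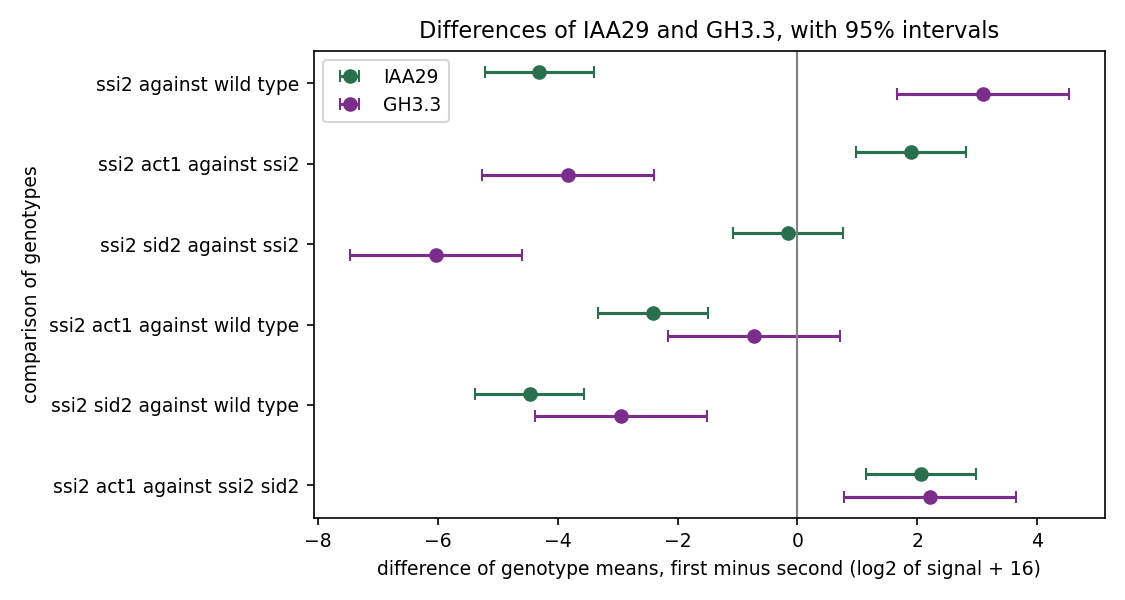
Differences of genotype means for IAA29 and GH3.3 in the 6 comparisons, first genotype minus second, on the log2(signal + 16) scale, with 95% intervals from the limma fit of all 12 arrays (n = 3 per genotype). The intervals take no account of how the genes were chosen. Only the differences of IAA29 between the double mutants and of GH3.3 in ssi2 act1 against wild type share no array with that choice. Their intervals still use the spread of all 12 arrays. The rest are descriptions. The genes lie on opposite sides of 0 in ssi2 against wild type and in ssi2 act1 against ssi2. In the other 4 comparisons their estimates lie on the same side. Of these, the intervals of IAA29 in ssi2 sid2 against ssi2 and of GH3.3 in ssi2 act1 against wild type include 0.

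Other genes of the auxin pathway and of shade response were listed by role, and 27 were measured besides IAA29 and GH3.3. They were 6 Aux/IAA genes, 11 genes of auxin synthesis and turnover, 2 of auxin transport, 1 of perception, 4 other auxin-induced genes and 3 PIF and shade genes. No auxin response factor or SAUR gene had a single-gene probe set in the annotation used, so these were not analysed here. Of the 27 genes, 15 had a mean signal under 64, where changes are compressed by the log2(signal + 16) scale.

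In ssi2 against wild type 2 of the 27 genes fell and 0 rose by limma, where 4.34% of all 22746 probe sets fell and 5.77% rose. The share that fell was 7.41%. The count that fell was 4 after quantile normalization and 5 after median centring. At an unadjusted p under 0.05 the counts were 7 lower and 1 higher, where 9.97% of all probe sets were lower and 13.8% higher. The median difference of the list was -0.34, against 0.08 over all probe sets. The genes that fell were IAA34 and FHL. In ssi2 sid2 against wild type 3 genes fell, IAA34, FHL and WES1, which is 11.1% of the list where 2.79% of all probe sets fell. The count that rose there by limma was 0, where 3.62% of all probe sets rose, and 1 gene was higher at an unadjusted p under 0.05, as were 10.8% of all probe sets. SKP2A was called higher there without wild type replicate 2 (1.11, limma adjusted p = 0.0226), and UGT74D1 without ssi2 replicate 3 (0.88, limma adjusted p = 0.0381). HAT2 was called lower there without ssi2 replicate 3 (-1.44, limma adjusted p = 0.011), and IAA30 without both unlike arrays (-1.29, limma adjusted p = 0.0452). In ssi2 act1 against wild type limma called 0 genes, where 1.79% of all probe sets were called. At an unadjusted p under 0.05, 4 genes were lower and 0 higher, and of all probe sets 6.48% were lower and 6.36% higher.

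In ssi2 act1 against ssi2 1 gene fell, SKP2A, and 0 rose by limma, where 5.2% of all probe sets fell and 3.17% rose. At an unadjusted p under 0.05, 3 genes were lower and 6 higher, and of all probe sets 12.5% were lower and 9.14% higher. In ssi2 sid2 against ssi2 limma called 0 genes, where 3.13% of all probe sets were called. At an unadjusted p under 0.05, 1 gene was lower and 2 were higher, and of all probe sets 8.82% were lower and 7.36% higher. Between ssi2 act1 and ssi2 sid2 3 genes were higher, IAA34, FHL and HAT2, and 1 was lower, UGT74D1, where 2.44% and 3.96% of all probe sets were. The medians of the list in these 3 comparisons were 0.12, -0.012 and 0.0049, against -0.043, -0.071 and 0.014 over all probe sets. The counts with act1 against ssi2 moved with the scaling, to 3 higher and 1 lower after quantile normalization and 5 higher and 0 lower after median centring. With so few genes called, these shares say little about the pathway as a whole.

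**Figure D3:**
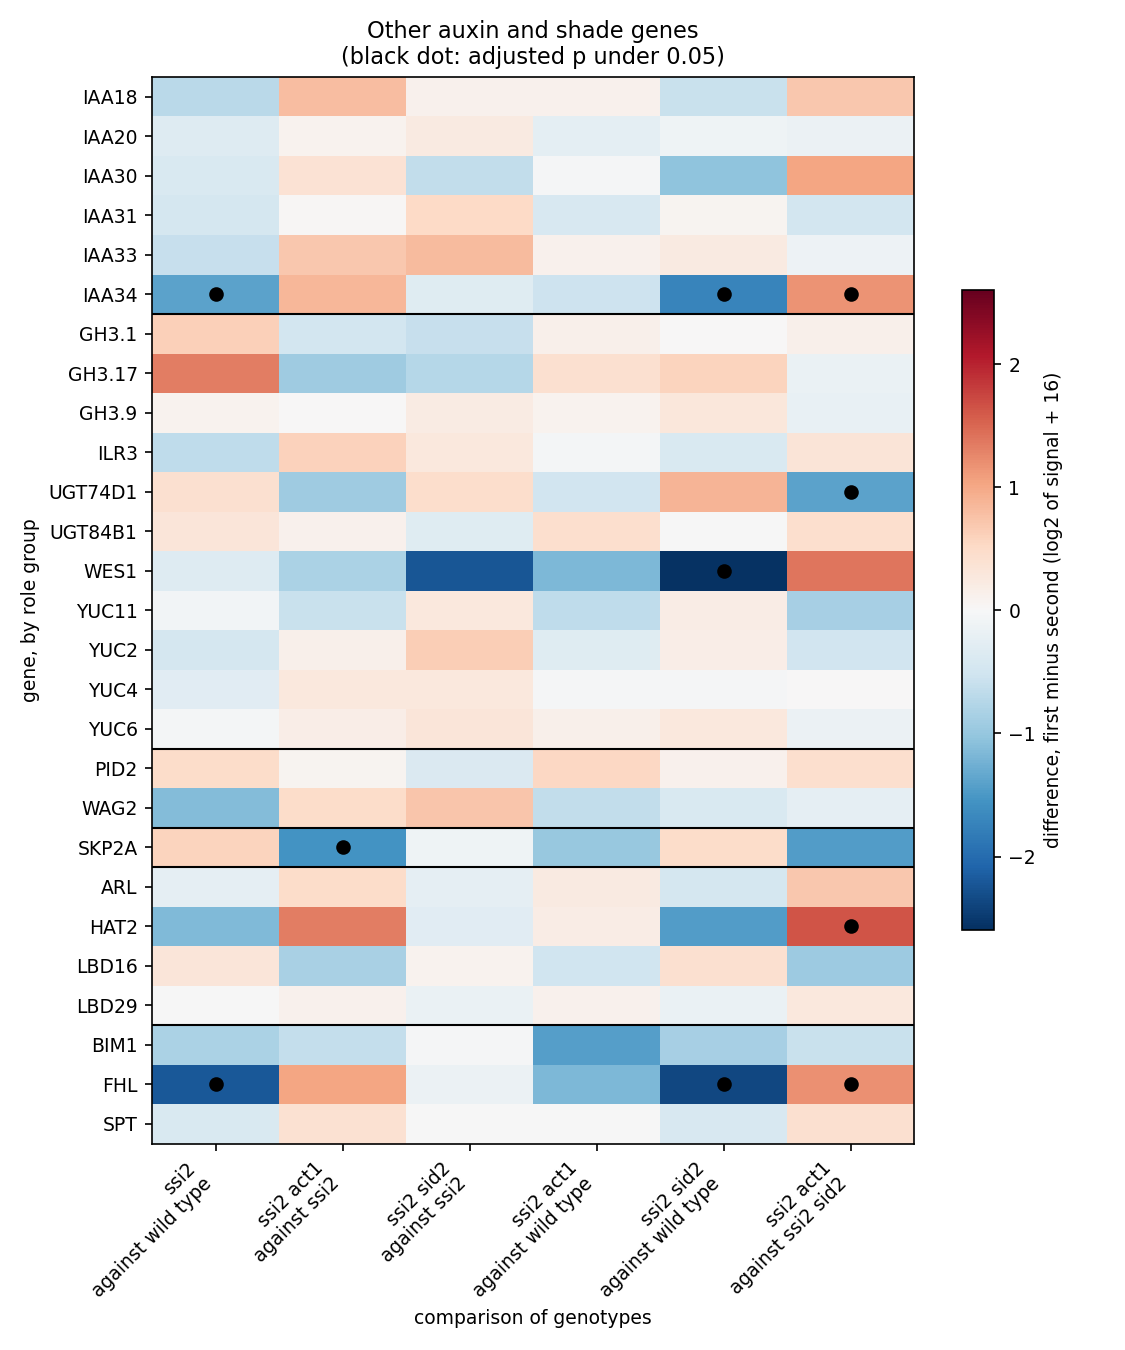
Differences of the 27 other auxin and shade genes in the 6 comparisons, coloured from blue (first genotype lower) to red (higher) on the log2(signal + 16) scale. Genes are grouped by role from top to bottom as Aux/IAA repressors, synthesis and turnover, transport, perception, other auxin-induced genes, and PIF and shade genes. Black dots mark the 10 limma calls, of which 3 each belong to IAA34 and FHL.

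Among the Aux/IAA genes, IAA34 had the same order of genotypes as IAA29 at a lower level. IAA34 belongs to the members of the family that lack the degron through which auxin destabilises the others. Its signal was 154.8, 130.9 and 88.1 in wild type, 36.9, 29.5 and 44.8 in ssi2, 64.3, 85.8 and 90.0 in ssi2 act1, and 24.2, 20.3 and 35.4 in ssi2 sid2. All ssi2 and ssi2 sid2 arrays lay below all others, and ssi2 act1 overlapped with wild type. IAA34 fell against wild type, with differences of -1.39 in ssi2 (SE 0.26, limma adjusted p = 0.00501) and -1.71 in ssi2 sid2 (SE 0.26, limma adjusted p = 0.00372). These calls held in all 19 alternatives that gave a value, where the limma adjusted p ranged from 0.00444 to 0.0406 and from 0.00287 to 0.021.

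Between the double mutants IAA34 was higher in ssi2 act1 by 1.18 (SE 0.26, limma adjusted p = 0.0197). That call was lost without ssi2 act1 replicate 2 (limma adjusted p = 0.0679) or replicate 3 (0.0792) and without ssi2 sid2 replicate 1 (0.0849) or replicate 2 (0.0576). The other 5 Aux/IAA genes measured, IAA18, IAA20, IAA30, IAA31 and IAA33, held no call in any comparison under the main settings. IAA18 was the brightest of them, with signals from 1021 to 3068, and its difference in ssi2 was -0.69 (SE 0.28, limma adjusted p = 0.15).

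Among the PIF and shade genes, FHL also had this order. FHL encodes a relative of FHY1 that carries phytochrome A into the nucleus under far-red light. Its signal was 262, 409.9 and 179 in wild type, 39.9, 58.1 and 40.7 in ssi2, 110.9, 144.7 and 82.0 in ssi2 act1, and 36.7, 41.9 and 39.3 in ssi2 sid2. As for IAA29, the ssi2 act1 arrays stood between wild type and the other mutants without overlap. FHL fell against wild type, with differences of -2.21 in ssi2 (SE 0.30, limma adjusted p = 0.000781) and -2.37 in ssi2 sid2 (SE 0.30, limma adjusted p = 0.00157). In none of the 20 alternatives was either call lost, the highest limma adjusted p being 0.0157 and 0.0119.

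In ssi2 act1 FHL was higher than in ssi2 sid2 by 1.19 (SE 0.30, limma adjusted p = 0.0373), and the difference from ssi2 was 1.03 (SE 0.30, limma adjusted p = 0.0559, and 0.0226 without wild type replicate 2). The call between the double mutants was lost at a pseudocount of 64 (0.76, adjusted p = 0.0729) and without any 1 of the 6 arrays compared (adjusted p from 0.052 to 0.131, differences from 1.01 to 1.37) or without wild type replicate 1 (0.0552). BIM1 and SPT, which encode basic helix-loop-helix proteins, held no call.

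HAT2, an auxin-induced homeodomain-leucine zipper gene, was high in wild type at 1688, 1909 and 1825 and in ssi2 act1 at 2040, 1978 and 2211. It was 587, 564 and 1603 in ssi2 and 512, 1058 and 514 in ssi2 sid2. The unlike ssi2 array, replicate 3, held the highest of the ssi2 values, close to wild type. It held the highest ssi2 values of IAA29 and GH3.3 too, but these were not close to wild type. The difference of HAT2 in ssi2 against wild type was -1.14 (SE 0.39, limma adjusted p = 0.094), and -1.62 without ssi2 replicate 3 (0.00765). In ssi2 sid2 against wild type it was -1.44 (SE 0.39, limma adjusted p = 0.0501, and 0.011 without ssi2 replicate 3). In ssi2 act1 against ssi2 it was 1.34 (SE 0.39, limma adjusted p = 0.0575, and 0.00473 without ssi2 replicate 3). Between the double mutants HAT2 was higher in ssi2 act1 by 1.64 (SE 0.39, limma adjusted p = 0.0302). That call was lost at a pseudocount of 1 (0.0561), without any 1 of the ssi2 act1 arrays (0.0666, 0.0795 and 0.0982) and without ssi2 sid2 replicate 1 or 3 (0.129 and 0.139). ARL, LBD16 and LBD29, the other auxin-induced genes measured, held no call.

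**Figure D4:**
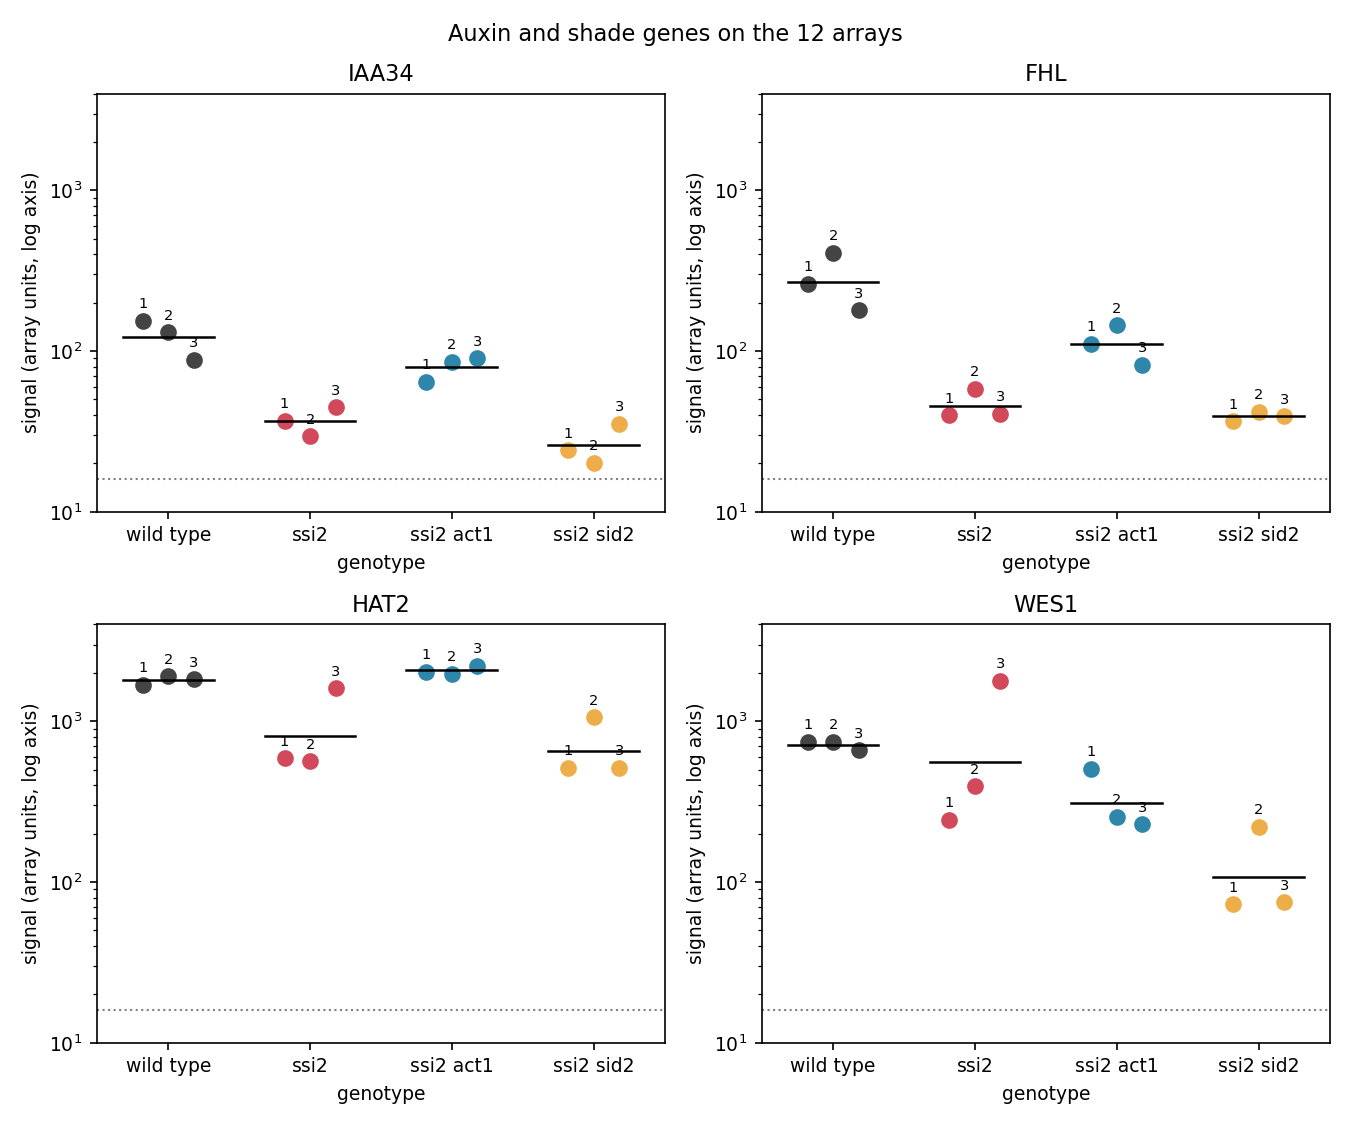
Signals of IAA34, FHL, HAT2 and WES1 on each of the 12 arrays, on a log axis, by genotype, drawn as in the plot of IAA29 and GH3.3. IAA34 and FHL are lower on all ssi2 and ssi2 sid2 arrays than on the other arrays, while HAT2 and WES1 have 1 ssi2 array, replicate 3, far above the other ssi2 arrays.

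Of the GH3 family 4 other genes were measured, and none was called in ssi2 against wild type. WES1, also known as GH3.5, joins amino acids to auxin and acts on salicylic acid too. Its signal was 746, 746 and 658 in wild type, 245, 395 and 1784 in ssi2, 505, 255 and 229.5 in ssi2 act1, and 72.6, 221 and 74.8 in ssi2 sid2. The ssi2 sid2 arrays were below all others, as for GH3.3, and the ssi2 arrays lay on both sides of wild type. WES1 fell by 2.56 in ssi2 sid2 against wild type (SE 0.62, limma adjusted p = 0.0312), and the difference from ssi2 was -2.22 (SE 0.62, limma adjusted p = 0.0827), or -1.40 without ssi2 replicate 3 (limma adjusted p = 0.177). The call was lost at a pseudocount of 64 (adjusted p = 0.0566), with a replicate block (0.0559), without any 1 of the wild type arrays (0.0923, 0.0556 and 0.0755) and without ssi2 sid2 replicate 1 (0.118) or 3 (0.138).

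GH3.1, GH3.9 and GH3.17 held no call. GH3.17, which joins auxin to glutamate, had a difference of 1.33 in ssi2 against wild type (SE 0.48, limma adjusted p = 0.111), with signals of 4.83, 4.79 and 2.98 in wild type and of 10.2, 94.6 and 29.3 in ssi2. GH3.17 and IAA18 were picked for mention after their values were seen. The signals of GH3.1 and GH3.9 did not exceed 27.0 and 52.1 on any array, so both are dim. The ssi2 arrays of GH3.1 and GH3.17 were all above their wild type arrays, and GH3.1 had a difference of 0.62 (SE 0.35, limma adjusted p = 0.33). Such separation can arise by chance with 3 arrays per genotype, and its share over all probe sets was not counted. The auxin synthesis genes YUC2, YUC4, YUC6 and YUC11, which encode flavin monooxygenases, held no call either, but YUC11 was called lower in ssi2 act1 than in ssi2 sid2 without wild type replicate 2 (-0.85, limma adjusted p = 0.0487).

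UGT74D1, which glucosylates auxins, was 373, 383 and 274 in ssi2 act1 and 917, 886 and 942 in ssi2 sid2. Its difference between the double mutants was -1.39 (SE 0.33, limma adjusted p = 0.0313). The call was lost after quantile normalization (0.0643), median centring (0.0778), at a pseudocount of 1 (0.0613) and without any 1 of the 6 arrays compared (0.0582 to 0.12). In ssi2 act1 against ssi2 its difference was -0.92 with overlapping arrays (limma adjusted p = 0.121). Without ssi2 replicate 3, where UGT74D1 was at 355 against 1057 and 758 in the other ssi2 arrays, it was -1.36 (limma adjusted p = 0.00698). SKP2A, an F-box protein of the cell cycle that binds auxin, was 1648, 1879 and 1598 in ssi2 and 687, 480.003 and 550.4 in ssi2 act1. It fell by 1.56 with act1 (SE 0.43, limma adjusted p = 0.0439). That call was lost after median centring (0.108), at pseudocounts of 1 and 64 (0.0748 and 0.0533) and without any 1 of the mutant arrays (0.0565 to 0.145). Without wild type replicate 2, where SKP2A was at 2717 against 794 and 665 in the other wild type arrays, its limma adjusted p was 0.00145. Its difference in ssi2 against wild type was 0.58 (limma adjusted p = 0.462), or 1.21 without that array (limma adjusted p = 0.00946). Of the transport genes PID2 and WAG2, the larger difference was that of WAG2 in ssi2 against wild type, -1.13 (SE 0.34, limma adjusted p = 0.0545).

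Genes of other cell types and of senescence were read beside these levels, 9 in all. SAG29, the 1 measured name of the senescence list, had signals of 212, 195 and 28.2 in ssi2, from 3.69 to 16.6 in wild type, from 6.57 to 27.6 in ssi2 act1 and from 2.36 to 14.1 in ssi2 sid2. It rose in ssi2 by 2.34 (SE 0.54, limma adjusted p = 0.0167), an order of ssi2 above the rest that GH3.3 also had. On ssi2 replicate 3, where GH3.3 was highest at 5546, SAG29 was lowest of the ssi2 arrays. The summed signal of the 2 root genes, PYK10 and EXPA7, was 63.0 to 337 in ssi2, against 32.3 to 72.4 in wild type, 66.2 to 74.5 in ssi2 act1 and 62.8 to 78.4 in ssi2 sid2. Of these PYK10 rose in ssi2 against wild type by 1.84 (SE 0.52, limma adjusted p = 0.0448), and EXPA7 was not called (limma adjusted p = 0.483). PYK10 was at 308, 214 and 37.2 in ssi2 and at 21.5, 27.2 and 38.0 in wild type. Its ssi2 replicate 3 thus lay within the range of wild type. The 3 measured genes of the guard cell list were FMA, SPCH and MUTE. Their sum was 288 to 325 in ssi2 sid2 and 144 to 209 in wild type. In ssi2 it was 172 to 272, and in ssi2 act1 193 to 274. Most of the sum was FMA, which was at 243 to 275 in ssi2 sid2. The trichome gene TRY was 395 to 753 in ssi2 sid2, 14.7 to 32.4 in wild type, 16.4 to 300.3 in ssi2 and 26.3 to 47.2 in ssi2 act1. TRY rose in ssi2 sid2 against wild type by 3.89 (SE 0.68, limma adjusted p = 0.00729). The part of such cells in the levels of IAA29 and GH3.3 was not tested.

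The genes most like each of the 2 in pattern were sought among the profiles of 13362 other single-gene probe sets, 1 for each gene matched to RefSeq, by the root mean square difference over the 12 arrays between log2 profiles, each centred on its own mean. For IAA29, whose own profile has a root mean square of 1.86, the closest were AT5G12050 at 0.71, AT1G12845 at 0.72, AT3G60290 at 0.77, AT5G66590 at 0.81 and AT5G57760 at 0.83. All 5 were high in wild type and low in ssi2. AT5G12050 went from 2164 to 3384 in wild type, 104.8 to 158 in ssi2, 385 to 784 in ssi2 act1 and 265 to 382 in ssi2 sid2, so its ssi2 sid2 arrays, unlike those of IAA29, lay above ssi2. AT5G57760 was at 793 to 2236 in ssi2 act1, which spans its range of 883 to 2220 in wild type, whereas IAA29 in ssi2 act1 remained below wild type.

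GH3.3 had no such close companion. Its own profile has a root mean square of 2.29, and the closest genes were UGT73D1 at 1.42, AT5G24210 at 1.42, AT1G02300 at 1.42, AT1G42705 at 1.43 and AT3G51330 at 1.47. UGT73D1, a UDP-glycosyltransferase gene, was at 253 to 615 in ssi2 and at most 13.0 on any other array, so it had the high level in ssi2 without the step from wild type down to ssi2 sid2. AT5G24210 was at 268 to 380.04 in wild type and 37.2 to 68.1 in ssi2 sid2 but overlapped between wild type and ssi2. The high level in ssi2 and the level in ssi2 sid2 below wild type were both seen in AT1G02300, with 450.2 to 660 in wild type, 909 to 2748 in ssi2 and 108 to 284 in ssi2 sid2. Its ssi2 act1 arrays, at 313 to 1555, reached above wild type, where those of GH3.3 did not.

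**Figure D5:**
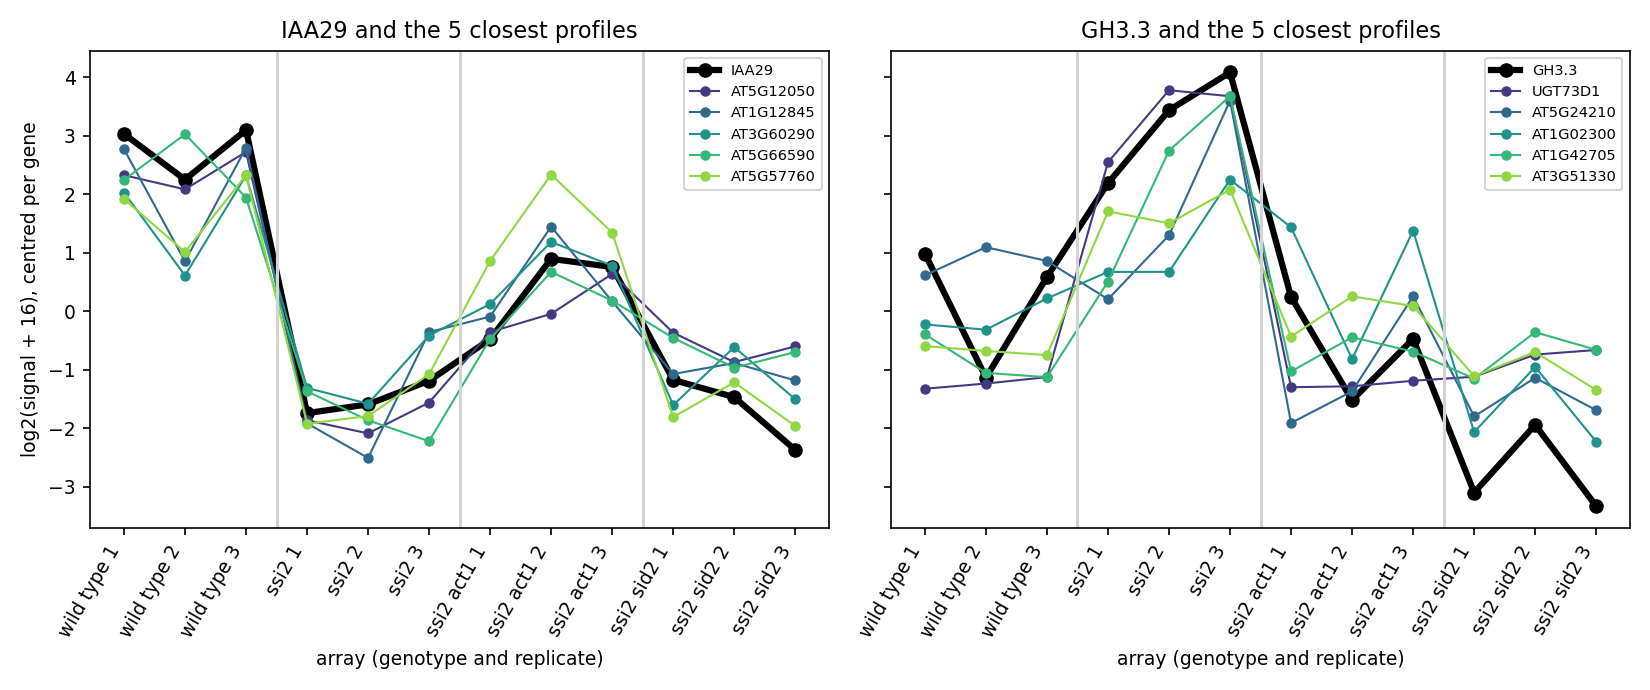
Profiles of IAA29 and GH3.3 (thick black lines) and of the 5 genes closest to each over the 12 arrays, as log2(signal + 16) centred on each gene's own mean. The profiles around IAA29 lie within root mean square differences of 0.71 to 0.83, and those around GH3.3 within 1.42 to 1.47.

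The measured genes next to each member in chromosome order were also read, 5 on each side, a choice made after the values of the 2 genes had been seen. Of the 10 neighbours of IAA29, 3 fell and 1 rose in ssi2 against wild type by limma. Of all probe sets 4.34% fell there and 5.77% rose. The genes that fell were AT4G32340 at -1.62 (limma adjusted p = 0.0146), AT4G32290 at -0.88 (0.035) and AT4G32270 at -0.91 (0.0411), and the gene that rose was AT4G32230 at 1.77 (0.00192). All 4 differences were smaller in size than that of IAA29. In ssi2 act1 against ssi2 AT4G32340 was higher by 1.50 (limma adjusted p = 0.0252), where 3.17% of all probe sets were called higher. AT4G32230 was lower in ssi2 sid2 than in ssi2, at -1.86 (limma adjusted p = 0.00478), and higher in ssi2 act1 than in ssi2 sid2, at 1.16 (0.0309). Of all probe sets 1.71% were called lower in the former comparison and 2.44% higher in the latter. AT4G32290 was lower in ssi2 sid2 than in wild type, at -0.91 (limma adjusted p = 0.0431), where 2.79% of all probe sets were called lower. In ssi2 act1 against wild type limma called 0 of the 10, where 1.79% of all probe sets were called. There 2 of the 10 had an unadjusted p under 0.05, and of all probe sets 6.48% were so lower and 6.36% higher. Of the 10 neighbours of GH3.3 limma called 0 in each of the 6 comparisons, with 0 to 2 at an unadjusted p under 0.05, and their differences lay between -1.17 and 1.22. Of all probe sets 1.79% to 10.1% were called in these comparisons. At an unadjusted p under 0.05, 6.36% to 13.8% were higher and 6.48% to 12.5% lower. Counts of 0 among so few genes therefore say little.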

How the data were processed

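Signal intensities of 22810 probe sets on 12 arrays were deposited by the authors. They were made with Affymetrix Expression Console 1.0, per the submitters' processing notes, while no source used here names the summary algorithm. The trimmed mean is close to 500 on every array, so the arrays were already scaled, and the number of arrays limits the precision. After 64 control probe sets were left out, log2(signal + 16) of 22746 probe sets was fitted with limma 3.58.1 in R 4.3.3, as 1 mean per genotype over all 12 arrays, with two-sided tests, Benjamini-Hochberg adjustment over all 22746 and a threshold of 0.05. Fold changes of dim genes are understated on this scale. The script was tested on simulated data.

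Of the probe sets, 13513 had a single gene symbol, 503 several and 8794 none, and 13436 matched RefSeq genes of TAIR10.1, which was used for names and gene order. The genes, lists and tests were chosen with earlier results of these data known. Named were, by rule, list genes with a call (up to 4 per role group and comparison), the gene with the largest difference in a role group without one, and the 5 closest profiles per gene. AUR3 was removed from the list because the symbol matched an Aurora kinase. Alternatives were quantile normalization, median centring, pseudocounts of 1 and 64, a filter at the 40th percentile, a replicate block, fits of the 6 arrays compared, each array left out, and both unlike arrays left out.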

Additional observations from a re-analysis of the deposited data

How the results depend on the processing

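The recomputed values were the differences of IAA29 and GH3.3 and the counts of auxin list genes called. A tested difference was held to be the same if it kept its sign and its side of the threshold. Other differences were the same if they shifted by less than the spread between replicates, and counts if they were equal or within a set ratio. Of 480 such values, 420 were the same, 57 moved and 3 lost their call, all of IAA29 in ssi2 act1 against ssi2 sid2. The sign turned in 2, both of IAA29 in ssi2 sid2 against ssi2, where -0.16 became 0.011 after quantile normalization and 0.19 without ssi2 sid2 replicate 3. A pseudocount of 64 gave -3.61 for IAA29 in ssi2 and -3.69 in ssi2 sid2 against wild type, and -5.01 for GH3.3 in ssi2 sid2 against ssi2. Without both unlike arrays, ssi2 against wild type gave -4.74 for IAA29 and 2.03 for GH3.3. With any 1 array left out, IAA29 in ssi2 act1 against ssi2 sid2 ranged from 1.71 to 2.50. Deviations of same-numbered samples had correlations from -0.38 to 0.33 over 18 pairs, against -0.38 to 0.46 over 36 with different numbers. Same-numbered pairs of wild type and ssi2 were at 0.12, 0.096 and 0.12. Those of ssi2 act1 and ssi2 sid2 were at -0.38, -0.25 and -0.054. Whether same-numbered samples were grown or processed together cannot be told from these values. With the replicate block, IAA29 in ssi2 act1 against ssi2 sid2 remained at 2.06 (limma adjusted p = 0.0323).

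Calls in the auxin list moved as follows, and the cause was not tested. In ssi2 against wild type, 4 genes were lower after quantile normalization, 5 after median centring and 1 with the filter, and 1 was higher without both unlike arrays. In ssi2 act1 against ssi2, 3 were higher after quantile normalization, 5 after median centring, 2 with the filter, 1 with the replicate block and 2 without both arrays. There, 0 were lower after median centring and at pseudocounts of 1 and 64, and 2 without both arrays. In ssi2 sid2 against ssi2, 1 was higher after quantile normalization. In ssi2 sid2 against wild type, 2 were higher and 5 lower without both arrays. In ssi2 act1 against ssi2 sid2, 0 were lower after quantile normalization or median centring, 2 with the filter or with only the 6 arrays compared, and 3 without both arrays. With any 1 array left out, the counts ranged from 0 to 1 higher in ssi2 against wild type, 0 to 1 in each direction in ssi2 act1 against ssi2, 0 to 1 lower in ssi2 sid2 against ssi2, 0 to 1 higher in ssi2 sid2 against wild type, and 0 to 3 in each direction between the double mutants. Median centring moved the median of all probe sets in ssi2 against wild type from 0.078 to -0.22, and in ssi2 act1 against ssi2 from -0.043 to 0.24. Against these shifts the differences of IAA29 and GH3.3 were -4.60 and 2.79, and 2.19 and -3.54. Of the 27 listed genes 15 are dim, which limits what the counts can show.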
